A study of Bos taurus with 31 samples.

Results

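The effect of maternal body weight gain on the fetal liver was examined where the dam received no vitamin and mineral premix, by setting the NoVTM_MG fetuses against the NoVTM_LG fetuses. The treatment label placed 16 of the 31 bovine liver libraries in these groups, 8 on each side. All were female fetuses of Angus-cross heifers bred by artificial insemination to a single sire, and their livers were taken on day 83 of gestation. Both groups shared a basal mixed ration of forage, corn silage, distillers grains and corn, and neither received the premix. NoVTM_LG dams stayed on that ration from breeding, with a target gain of 0.28 kg per day. NoVTM_MG dams had an additional energy and protein supplement from breeding, based on corn and distillers grains with fish oil and urea, and a target gain of 0.79 kg per day. Energy, protein and the other ingredients of that supplement were given together, so they cannot be told apart. For comparison, 8 VTM_LG and 7 VTM_MG fetuses came from dams on the same levels of gain with the premix. Premix carrier came to 0.45 kg per day in the VTM groups and 0 in the NoVTM groups. Vitamins and minerals therefore cannot be told apart from that carrier.

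The fetal liver of a ruminant serves as a metabolic organ and, for part of gestation, as a main site of blood cell formation, so whole-tissue RNA mixes hepatocytes with developing blood cells, endothelium and stroma. Nutrients reach it from the dam through the placenta and the umbilical vein, and maternal intake in early gestation is studied for its lasting effects on fetal metabolism. In such tissue, fewer cells of a type and less RNA per cell cannot be told apart. The deposited identifiers are not paired with gene names, and 0 of them were matched to a symbol in the reference gene table, so genes are given by Ensembl identifier with no statement on what they encode. For the same reason the label of the tissue was not checked against liver markers. At most 2 identifiers are printed in each direction, and other genes are described by their values.

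The 16 libraries held 13062894 to 18458776 counts, with a mean of 14786800 ± 857232 in NoVTM_LG and 14950900 ± 1697120 in NoVTM_MG (SD, n = 8 each). Between 17261 and 17699 genes had at least 1 count per library. Over 9 library measures of depth, composition and position on the first principal components, the smallest p of a two-sided exact permutation test was 0.0706 (adjusted p = 0.635). It belonged to the number of genes at least 2-fold below their median over the 16 libraries, which was 127 ± 22.1 in NoVTM_LG and 153 ± 28.9 in NoVTM_MG. On the second component, which carried 10.1% of the variance, NoVTM_MG replicate 3 lay at -35.2, and the other 15 libraries lay at -8.95 or above. The edgeR counts of genes called and the fits of the named genes are also given without it. Spread between fetuses was of similar size on both sides: the biological coefficient of variation, pooled over the tested genes, was 13.1% in NoVTM_LG and 14.5% in NoVTM_MG. It was 19.4% in VTM_LG and 14.4% in VTM_MG, which also entered the estimate of spread behind the main test.

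No gene passed an adjusted p of 0.05 in the main test, edgeR's quasi-likelihood F test with Benjamini-Hochberg adjustment, in which 14228 genes were tested (0% called). Before adjustment 653 genes had a p under 0.05, and after adjustment DESeq2 called 9 genes and limma voom 2. The genes nearest to the threshold were lower in NoVTM_MG. ENSBTAG00000012855 and ENSBTAG00000055207 each had an adjusted p of 0.0541 in edgeR, and DESeq2 and limma voom called both of them. Expression is given as CPM, a gene's counts relative to the total of its library after TMM scaling, in the usual CPM unit, and log2 fold changes are of NoVTM_MG over NoVTM_LG.

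ENSBTAG00000012855 ranged from 24.6 to 50.6 CPM in the NoVTM_LG fetuses, with a median of 33.7. In the NoVTM_MG fetuses it ranged from 14.9 to 28.1 CPM, with a median of 22.1. All 8 NoVTM_MG fetuses lay below the NoVTM_LG median and 6 of them below every NoVTM_LG fetus, while NoVTM_MG replicates 4 and 8, at 25.2 and 28.1 CPM, lay above the lowest NoVTM_LG fetus. The NoVTM_LG values divided into 3 fetuses at 45.9 CPM or more, replicates 1, 5 and 8, and 5 fetuses at 33.7 CPM or less. The means were 37.2 ± 9.32 CPM in NoVTM_LG and 21.8 ± 4.33 CPM in NoVTM_MG (SD, n = 8 each), from 219 to 733 counts per library. The fitted level in NoVTM_MG was 0.586 times that in NoVTM_LG, with a 95% interval of 0.479 to 0.716 (log2 fold change -0.77, SE 0.142, edgeR adjusted p = 0.0541).

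ENSBTAG00000055207 was expressed more strongly, with 3008 to 6501 counts per library. Its values ran from 288 to 461 CPM in NoVTM_LG, with a median of 370, and from 222 to 319.9 CPM in NoVTM_MG, with a median of 244. Every NoVTM_MG fetus lay below the NoVTM_LG median, and 5 of 8 lay below every NoVTM_LG fetus. NoVTM_MG replicates 2, 5 and 6, at 299.8, 288 and 319.9 CPM, were inside the NoVTM_LG range, whose lower end was formed by replicates 3, 6 and 7, at 288 to 308 CPM. The means were 368 ± 65.3 and 260 ± 37.3 CPM in the same order (SD, n = 8 each). The fitted ratio was 0.707, with a 95% interval of 0.619 to 0.808 (log2 fold change -0.50, SE 0.0946, edgeR adjusted p = 0.0541).

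The fetuses that overlapped between groups were not the same for the 2 lower genes. NoVTM_MG replicate 8 was the highest of its group for ENSBTAG00000012855 and, at 222 CPM, the lowest for ENSBTAG00000055207. Within NoVTM_LG the log2 CPM of these genes had a Pearson r of 0.83 (exact permutation p = 0.0154, adjusted over 2 groups 0.0308, n = 8) and a Spearman rho of 0.71 (exact permutation p = 0.0576, adjusted 0.115). Within NoVTM_MG r was -0.38 (exact permutation p = 0.347, adjusted 0.347, n = 8) and rho was -0.52 (exact permutation p = 0.197, adjusted 0.197). Leaving out the 2 fetuses farthest from the median of ENSBTAG00000012855 gave r = 0.61 in NoVTM_LG and r = -0.67 in NoVTM_MG. The difference between these correlations was not tested.

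**Figure D1:**
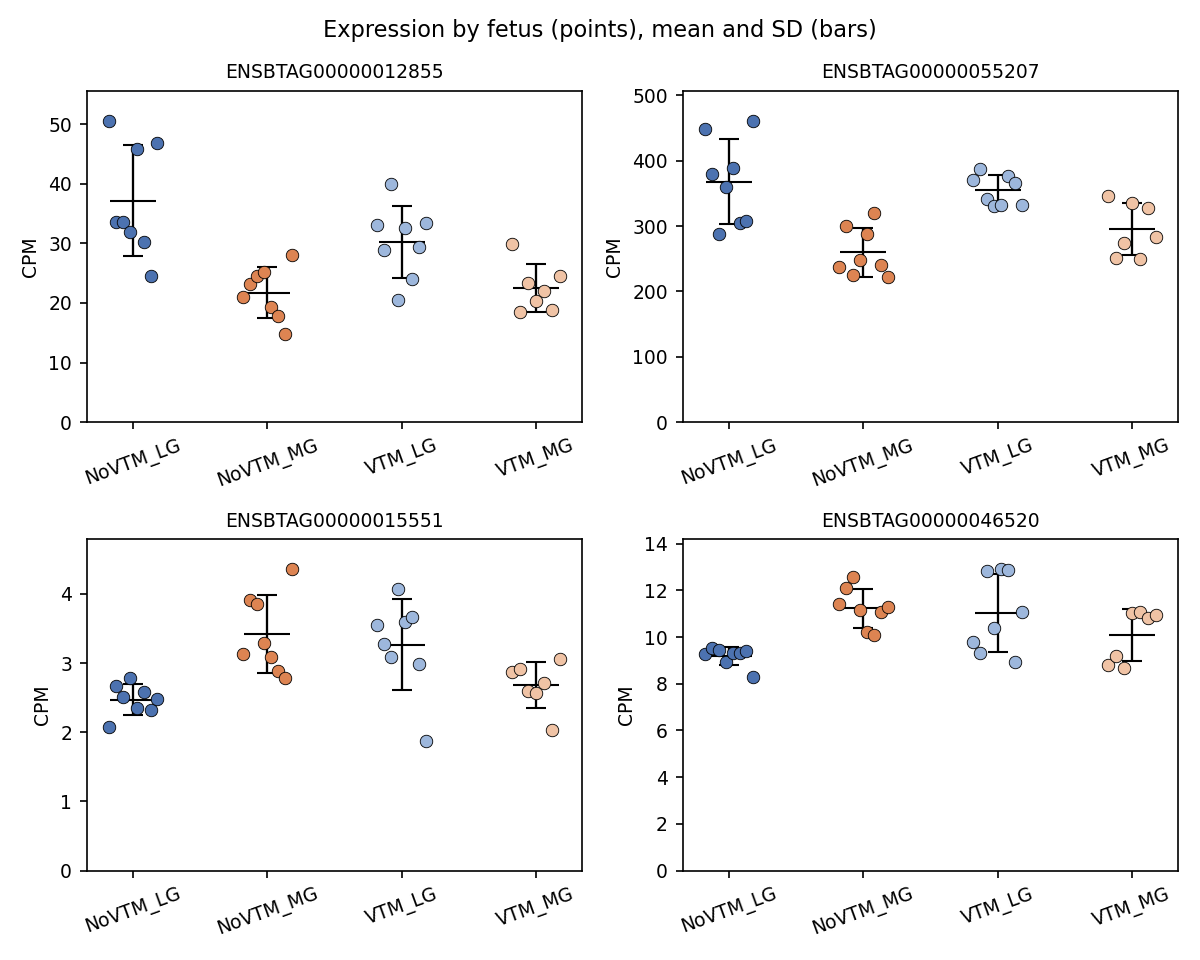
Expression in CPM (vertical axes, from 0) of the 2 lower and 2 higher genes of smallest p in every fetus, by group; points are fetuses and bars are the mean and SD. ENSBTAG00000012855 and ENSBTAG00000055207 are lower in NoVTM_MG with some overlap, while ENSBTAG00000046520 and, under TMM scaling only, ENSBTAG00000015551 do not overlap between NoVTM_LG and NoVTM_MG.

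On the higher side no gene came near the threshold: the smallest edgeR p among genes with a mean of at least 1 CPM in either group was that of ENSBTAG00000015551, which ranked 21 among all genes. It ran from 2.07 to 2.78 CPM in NoVTM_LG (median 2.49) and from 2.78 to 4.36 CPM in NoVTM_MG (median 3.21), from 30 to 70 counts per library. Under TMM scaling the groups did not overlap, although their nearest fetuses, at 42 and 41 counts, were separated only after scaling to library size. The means were 2.47 ± 0.222 and 3.41 ± 0.563 CPM (SD, n = 8 each), a fitted ratio of 1.38 with a 95% interval of 1.15 to 1.66 (log2 fold change 0.47, SE 0.129, edgeR adjusted p = 0.644).

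ENSBTAG00000046520 was next on this side. It ran from 8.30 to 9.55 CPM in NoVTM_LG (median 9.31) and from 10.1 to 12.6 CPM in NoVTM_MG (median 11.2), again with no overlap. Its NoVTM_LG values were tightly grouped, with a coefficient of variation of 4.39%, against 7.46% in NoVTM_MG. The means were 9.19 ± 0.404 and 11.2 ± 0.838 CPM (SD, n = 8 each), a fitted ratio of 1.22 with a 95% interval of 1.09 to 1.37 (log2 fold change 0.29, SE 0.0826, edgeR adjusted p = 0.644). Neither higher gene passed in any of the 42 other fits, where the lowest adjusted p was 0.203 for both, in limma voom.

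Complete separation of the 8 NoVTM_MG from the 8 NoVTM_LG fetuses was rare. It was seen for 3 of 14228 genes (0.0211%), the 2 higher genes named above and 1 lower gene (0.0141% and 0.00703% of tested genes). That lower gene was expressed at 0.529 to 0.946 CPM in NoVTM_LG and at 0.0679 to 0.464 CPM in NoVTM_MG (log2 fold change -1.05, adjusted p = 0.662 in edgeR). The 2 lower genes of smallest p were not among the 3, as their groups overlapped. Under relative log expression scaling and under upper quartile scaling, both tried for this count after the data were seen, 2 of the 14228 genes were fully separated, and the groups of ENSBTAG00000015551 overlapped. Of all splits of 8 against 8, a share of 0.000155 separates the values of a gene fully, in either direction. Over 14228 genes that share comes to a few genes, near the 3 and the 2 seen. The lack of overlap is therefore a description of these genes and no sign of an effect by itself.

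The 653 genes with an unadjusted p under 0.05 made up 4.59% of those tested. That is slightly below the share of 0.05 that this threshold gives on average where no gene changes. The counts within the 653 are therefore descriptions and do not mark genes that responded. Of the 653, 357 were lower in NoVTM_MG (2.51% of genes tested) and 296 higher (2.08%). The balance varied with the method. Upper quartile scaling gave 384 lower and 252 higher, limma voom 668 and 659, and edgeR with only the NoVTM libraries 446 and 411. TMM scaling centres the fitted values, whose median log2 fold change was 0.00. The 12 genes of smallest p overall were all lower in NoVTM_MG, and the 12 leading higher genes stood between rank 21 and rank 69. The adjusted p of the 12 lower genes ran from 0.0541 to 0.369 in edgeR, and that of the 12 higher genes from 0.644 to 0.948.

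**Figure D2:**
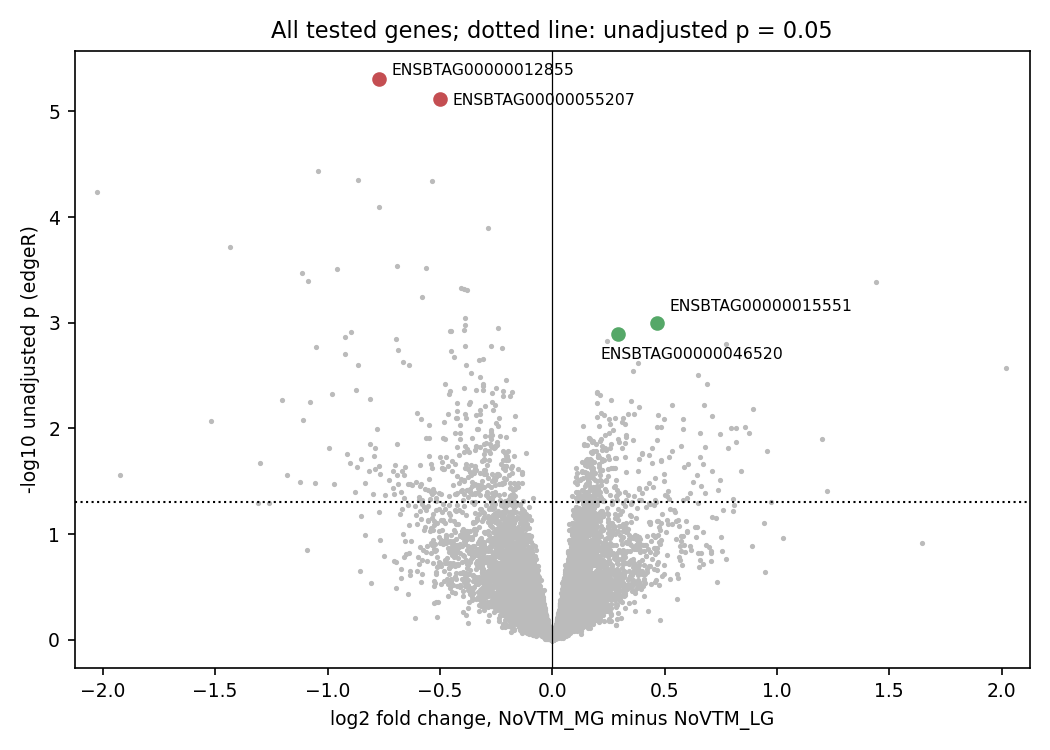
Each point is 1 of 14228 tested genes, with its log2 fold change of NoVTM_MG over NoVTM_LG on the horizontal axis and the -log10 of its unadjusted edgeR p on the vertical axis. The points highest in the plot lie on the lower side, led by ENSBTAG00000012855 at -0.77 and ENSBTAG00000055207 at -0.50, and the dotted line marks an unadjusted p of 0.05.

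Fitted changes were small for most genes. A change of at least 1.25-fold was fitted for 325 genes on the higher side and 537 on the lower side, together 6.06% of those tested. At 1.5-fold these numbers were 72 and 109 (1.27%), and at 2-fold they were 6 and 18 (0.169%). Of the 24 genes at 2-fold or more, 19 had an unadjusted p under 0.05, 8 averaged under 1 CPM in both groups, and 5 stayed at 2-fold or more whichever of the 16 libraries was left out (2 higher and 3 lower). For 81.4% of genes the 95% interval excluded changes beyond 1.5-fold up or down, and for 95.7% it excluded changes beyond 2-fold.

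Precision followed the level of expression. Among 1061 genes under 1 CPM, where the median was 10 counts per library, the median SE of the log2 fold change was 0.327 and 1.13% of genes were fitted at 2-fold or more. Among 4712 genes at 1 to 10 CPM the median SE was 0.17, and among 7248 genes at 10 to 100 CPM it was 0.0865. The 1207 genes over 100 CPM had a median SE of 0.0779 and a median of 2480 counts. The share with an unadjusted p under 0.05 was 5.94%, 5.09%, 4.21% and 3.73% from the lowest to the highest level. Lower genes outnumbered higher ones under 10 CPM, with 42 against 21 below 1 CPM and 155 against 85 from 1 to 10 CPM. From 10 to 100 CPM the order was the other way, with 139 lower and 166 higher, and over 100 CPM there were 21 lower and 24 higher.

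Detection in 1 group alone was near even. Of the 27607 genes in the table, 856 had counts in NoVTM_LG libraries and 0 counts in all NoVTM_MG libraries, and 839 had the reverse. Genes found in at least 4 of 8 libraries of 1 group and in 0 of the other numbered 26 on each side. In at least 6 libraries there were 3 such genes for NoVTM_LG, with at most 16 counts summed over the group, and 0 for NoVTM_MG. No gene was found in all 8 libraries of 1 group and in none of the other, so no switch between presence and absence was detectable at this depth.

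DESeq2's Wald test called 9 genes (0.0633% of those tested) and all 9 were lower in NoVTM_MG. They included ENSBTAG00000012855 (DESeq2 adjusted p = 0.0012) and ENSBTAG00000055207 (DESeq2 adjusted p = 0.00169). The edgeR likelihood ratio test called 7 (0.0492%), all of them among the 9, and limma voom called 2 (0.0141%), which were the 2 named lower genes. The 9 were also the 9 genes of smallest p in the main test. Of these 9, the edgeR adjusted p of the other 7 ran from 0.13 to 0.302, and their DESeq2 adjusted p from 0.015 to 0.0361.

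These 7 genes covered a wide range of expression, from 2.80 to 219 CPM in NoVTM_LG. The most abundant averaged 219 ± 83.1 CPM in NoVTM_LG and 106 ± 25.3 CPM in NoVTM_MG (SD, n = 8 each), for which the log2 fold change was -1.04 (SE 0.219, edgeR adjusted p = 0.13). Another abundant gene averaged 86.4 ± 28.6 and 50.6 ± 9.19 CPM, for which the log2 fold change was -0.77 (SE 0.172, edgeR adjusted p = 0.164). In both of these the NoVTM_LG fetuses varied more than the NoVTM_MG fetuses.

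The smallest change among the 7 was measured in a gene at 59.3 ± 6.85 CPM in NoVTM_LG and 48.6 ± 5.31 CPM in NoVTM_MG, for which the log2 fold change was -0.29 (SE 0.0664, edgeR adjusted p = 0.226). The largest was -2.02 (SE 0.44, edgeR adjusted p = 0.137), in a gene at 3.48 ± 3.22 and 0.847 ± 0.471 CPM. This last value leaned on its highest fetus: NoVTM_LG replicate 1 was at 9.19 CPM and the next at 7.71 CPM, and without that library the log2 fold change was -1.64. In each of the 9 genes all 8 NoVTM_MG fetuses lay below the NoVTM_LG median, and in none of the 9 were the groups fully apart.

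Taken fetus by fetus, each of the 8 NoVTM_MG libraries was below the NoVTM_LG median in 9 of 9 genes. The median difference over the 9 genes, on the log2 CPM scale, ran from -1.15 in NoVTM_MG replicate 4 to -0.56 in NoVTM_MG replicate 8. The NoVTM_LG libraries spread from -0.44 to 0.32. NoVTM_LG replicates 3, 7 and 6 stood lowest, at -0.44, -0.41 and -0.28, and replicates 8 and 1 highest, at 0.32 and 0.30. Replicate 1 was the highest of NoVTM_LG in 6 of the 9 genes, and replicate 3 the lowest in 4. These genes were chosen on this contrast, so the separation is a description.

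The fetuses of supplemented dams were not among the groups compared when the 9 genes were chosen. They were in the same fit, though, and shared its estimate of the spread, so they are not an independent check. With only the NoVTM libraries in the edgeR fit, the adjusted p of both named lower genes was 0.257. On the same scale the VTM_LG libraries lay between -0.23 and 0.20 and the VTM_MG libraries between -0.83 and -0.10. Apart from VTM_MG replicate 1, at -0.10, the VTM_MG libraries lay at -0.43 or below, lower than every VTM_LG library. In VTM_MG against VTM_LG, 8 of the 9 genes had lower fitted values (51.8% of all tested genes did), and 5 of them had an unadjusted p under 0.05 (7.58% of tested genes were lower at that p). None of the 9 passed the adjustment there in edgeR, which called 0 of 14228 genes (0%), while 2106 lay under 0.05 before adjustment (14.8%). DESeq2 called 1 gene and limma voom 0, and whether the DESeq2 gene is among the 9 is not given here. On the first component of all 31 libraries, VTM_LG replicates 4 and 7 lay at 63.0 and 37.9, and the other 29 at 6.69 or below. Without them 8 of the 9 were still lower, 4 with an unadjusted p under 0.05, against 2.58% of all tested genes that were lower at that p.

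**Figure D3:**
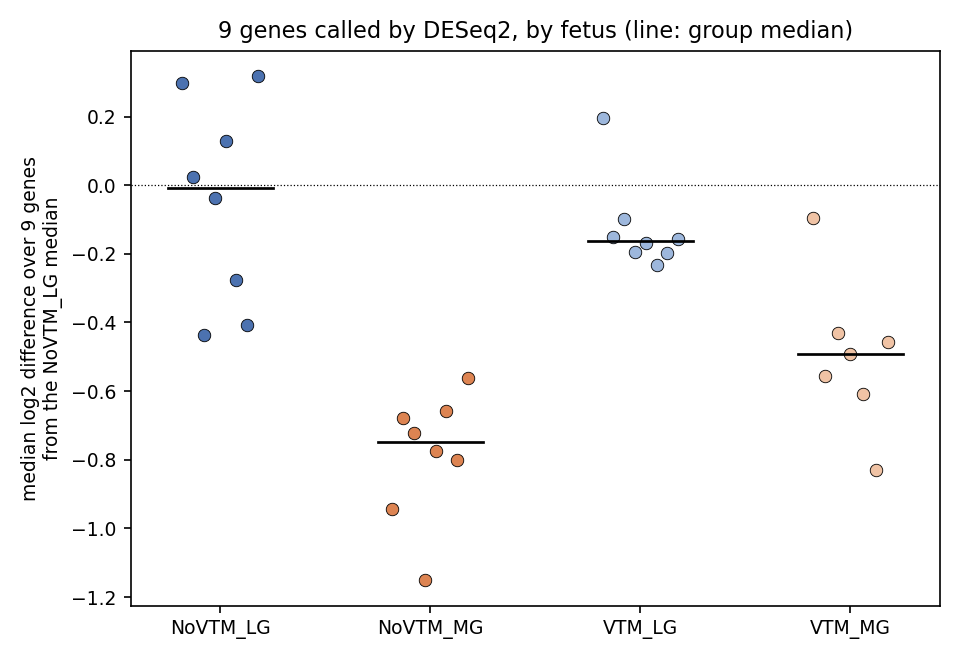
Median over the 9 genes called by DESeq2 of the log2 CPM difference from the NoVTM_LG median (vertical axis), 1 point per fetus and a line at the group median. The NoVTM_MG fetuses lie between -1.15 and -0.56, below all NoVTM_LG fetuses on which the genes were also chosen, and 6 of the 7 VTM_MG fetuses lie below all VTM_LG fetuses.

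Whether the effect of gain differed with the premix was tested as the difference of the 2 log2 fold changes, without premix minus with premix. By edgeR 0 of 14228 genes passed (0%), while 1516 lay under 0.05 before adjustment (10.7%), and DESeq2 and limma voom each called 0. For ENSBTAG00000012855 the means were 30.2 ± 6.06 and 22.5 ± 3.98 CPM in VTM_LG and VTM_MG (SD, n = 8 and n = 7), a log2 fold change of -0.43 with a 95% interval of -0.73 to -0.13. The difference from the unsupplemented -0.77 was -0.35, with an interval of -0.76 to 0.07 (adjusted p = 0.542 in edgeR). For ENSBTAG00000055207 the means were 355 ± 23.2 and 295 ± 40.4 CPM in the same order, a log2 fold change of -0.26 with an interval of -0.46 to -0.06, and the difference was -0.24, with an interval of -0.51 to 0.04 (adjusted p = 0.533 in edgeR). The intervals of both differences include 0.

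The 2 higher genes had negative fitted values in supplemented fetuses, and neither passed there in edgeR. ENSBTAG00000015551 averaged 3.26 ± 0.66 CPM in VTM_LG and 2.68 ± 0.334 CPM in VTM_MG, a log2 fold change of -0.29 with a 95% interval of -0.56 to -0.01 (edgeR adjusted p = 0.321), and the difference between the gain effects was 0.75 (95% interval 0.37 to 1.13, unadjusted p = 0.000298, adjusted p = 0.431 in edgeR). ENSBTAG00000046520 averaged 11.02 ± 1.66 and 10.08 ± 1.12 CPM, a log2 fold change of -0.13 with a 95% interval of -0.30 to 0.05 that includes 0 (edgeR adjusted p = 0.479), and the difference was 0.42 (95% interval 0.18 to 0.66, unadjusted p = 0.00124, adjusted p = 0.431 in edgeR). Neither difference passed the adjustment, and both contain the contrast on which the genes were chosen. Levels of these genes in VTM_LG covered those of NoVTM_MG in part, since VTM_LG reached 4.08 CPM for ENSBTAG00000015551 and 12.9 CPM for ENSBTAG00000046520.

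Among the 12 leading lower genes, 11 were also lower in VTM_MG against VTM_LG (51.8% of all tested genes were), 5 of them with an unadjusted p under 0.05 (7.58% of all tested genes), and their median log2 fold change there was -0.33. Without VTM_LG replicates 4 and 7 these numbers were 11 (50.4% of all tested genes), 4 (2.58%) and -0.33. These 12 include the 9 genes called by DESeq2, and the 5 genes are the same 5 as above, so this is not a separate observation. The shares over all tested genes also take no account of genes that vary together across fetuses. Among the 12 leading higher genes, 4 were also higher with premix (48.2% of all tested genes were), 0 with an unadjusted p under 0.05 (7.22% of all tested genes were higher at that p), and the median was -0.10. All 653 genes with an unadjusted p under 0.05 without premix were split near evenly: 319 of them (48.9%) had the same direction with premix. An unadjusted p under 0.05 with premix was reached by 28 in the same direction and 41 in the opposite one, together 10.6% of the 653, against 14.8% of all tested genes. That background leaned on VTM_LG replicates 4 and 7, as without them it was 5.48% of all tested genes in edgeR. The share of the 653 in that fit is not given here, so the 2 percentages do not rank the 653 against the background. No libraries are shared between these 2 contrasts, but all come from 1 fit with a common estimate of the spread.

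**Figure D4:**
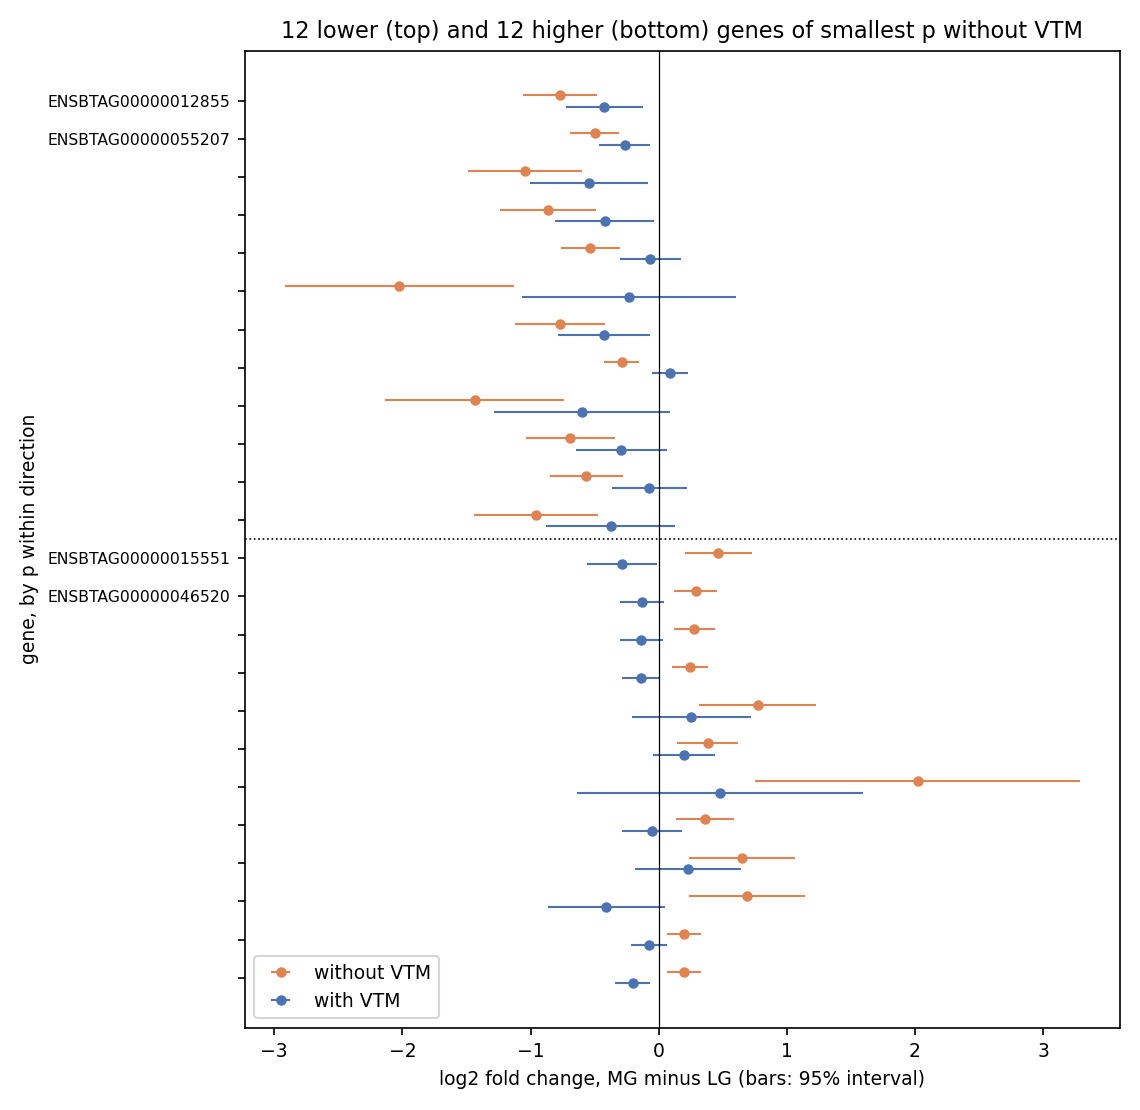
Log2 fold change of MG over LG (horizontal axis) with its 95% interval, without premix (orange) and with premix (blue), for the 12 lower and the 12 higher genes of smallest p without premix. With premix 11 of the 12 lower genes stay on the lower side and 4 of the 12 higher genes stay on the higher side.

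The edgeR count of 0 depended on single libraries. Leaving out each of the 31 in turn gave 0 to 7 genes past the threshold, with at least 1 gene in 10 cases. It was 7 without NoVTM_LG replicate 3, 5 without NoVTM_LG replicate 6, 3 without VTM_MG replicate 1, and 2 without NoVTM_LG replicate 7, without VTM_MG replicate 5 and without VTM_MG replicate 2. A single gene passed without NoVTM_MG replicate 6, NoVTM_MG replicate 8, VTM_LG replicate 3 or VTM_LG replicate 4. In all, 8 different genes were called at least once, all lower in NoVTM_MG and all among the 9 DESeq2 calls. Without NoVTM_MG replicate 3, the library apart on the second component, 0 genes passed and 677 lay under 0.05 before adjustment. In that fit the log2 fold changes of ENSBTAG00000012855 and ENSBTAG00000055207 were -0.80 and -0.47 (edgeR adjusted p = 0.099 and 0.205). Those of ENSBTAG00000015551 and ENSBTAG00000046520 were 0.44 and 0.27 (edgeR adjusted p = 0.827 and 0.899).

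ENSBTAG00000012855 passed in 9 of these 31 fits and ENSBTAG00000055207 in 7. Their log2 fold changes stayed between -0.84 and -0.69 and between -0.55 and -0.45. The adjusted p reached 0.281 for both without NoVTM_LG replicate 1, where the log2 fold changes were -0.69 and -0.45. Without NoVTM_LG replicate 7 they were 0.0124 and 0.0305. For ENSBTAG00000012855 these were the fetuses with the highest and the lowest value of NoVTM_LG.

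**Figure D5:**
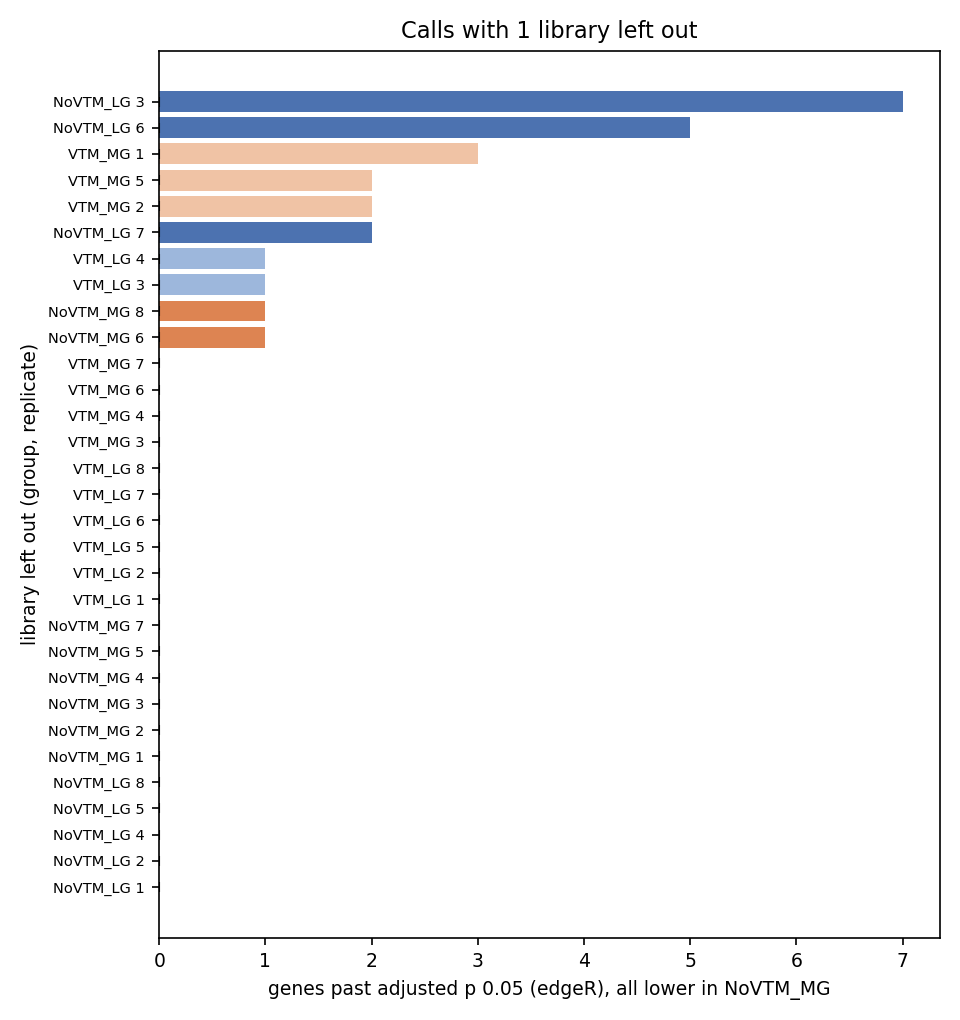
Number of genes past an adjusted p of 0.05 in edgeR (horizontal axis, from 0) when the library named on the vertical axis is left out of the fit. The count is 7 without NoVTM_LG replicate 3 and 5 without NoVTM_LG replicate 6, and it is 0 for 21 of the 31 libraries.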

How the data were processed

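RNA from the liver of 31 fetuses was sequenced from strand-specific libraries in pairs of 150 bp reads, per the labels' protocols. The authors deposited 1 table of raw, unnormalized counts for 27607 Ensembl gene identifiers. The submitters' processing notes name CASAVA, FastQC 0.11.8, MultiQC 1.9, STAR 2.7.3a and edgeR. Genome build, annotation, counting program and use of strand: not given in the sources used here. Columns were assigned to samples through the sample titles. Replicate numbers follow sample order and pair nothing. Breeding group and sequencing batch are not labelled per sample.

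Testing used edgeR 4.0.16 (R 4.3.3) with its quasi-likelihood F test, on all 31 libraries with 1 mean per group, TMM scaling and filterByExpr (minimum count 10, minimum total 15), following the edgeR contrasts of the series' design text. Standard errors were derived from the fold change and its F statistic. Log2 CPM used a prior count of 2. DESeq2 1.42.0, limma 3.58.1 and the other alternatives are in the closing section. The procedure was tested on simulated data. No pair of the 16 libraries matched within sampling noise (chi-square per degree of freedom at least 6.6 over 120 pairs). P-values of the main test set a fold change against the spread between fetuses, as estimated over all 31 libraries.

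Named genes were the 2 of smallest p in each direction with a mean of at least 1 CPM in either group, since no symbols were matched; the 12 of smallest p per direction are summarised. The fill-up to 12 names and the 29 gene lists needed symbols and were not run. The comparison, members and lists were chosen with earlier results of these data known.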

Additional observations from a re-analysis of the deposited data

Results flagged for a closer look

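NoVTM_MG replicate 3 lay at -35.2 on the second principal component of the 16 libraries. Its gap to the nearest library of its group, at -2.35, was 0.555 of the group's range, above the limit of 0.526 for 8 values. This was 1 flag among 34 groups of values examined, where chance flags about 5% of groups. Its total of 13931973 counts was within the range of the others.

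The fitted gain effects of ENSBTAG00000015551 in fetuses of dams without and with premix were 0.75 apart on the log2 scale (edgeR unadjusted p = 0.000298, adjusted p = 0.431). Under TMM scaling it was higher in 8 of 8 NoVTM_MG fetuses than in any NoVTM_LG fetus, and averaged lower in VTM_MG than in VTM_LG. For ENSBTAG00000046520 the same difference was 0.42 (edgeR unadjusted p = 0.00124, adjusted p = 0.431). Neither passed the adjustment, and both genes were chosen on the contrast without premix, which is part of this difference, so the unadjusted p-values are too small.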

How the results depend on the processing

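The number of genes past an adjusted p of 0.05 in NoVTM_MG against NoVTM_LG was 0 in the main edgeR test. It was 9 in DESeq2, 7 in the edgeR likelihood ratio test, 2 in limma voom, 2 in a robust edgeR fit, 2 with upper quartile scaling, 2 at an adjusted p of 0.10, 1 without VTM_LG replicates 4 and 7 together and 1 with the first component entered as covariate, all lower in NoVTM_MG. It was 0 with relative log expression scaling, all genes with counts tested, genes above 1 CPM in 7 libraries tested, only the 16 NoVTM libraries in the fit, or at least 1 asked of the absolute log2 fold change, and it was 0 to 7 with 1 library left out. The cause was not tested. At an unadjusted p under 0.05 the count was 653, and it was 1327 in limma voom, 1134 of 21921 genes with no filter, and 512 to 837 with 1 library left out. For the difference between the gain effects, 0 genes passed in the main test and in all 43 alternatives run.

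ENSBTAG00000012855 was lower in NoVTM_MG in all 42 other fits and passed in 16, with an adjusted p of 0.0012 to 0.281. ENSBTAG00000055207 was lower in all 42 and passed in 12 (0.00169 to 0.281). ENSBTAG00000015551 and ENSBTAG00000046520 were higher in all 42 and passed in 0. No paired analysis was possible because the labels carry no replicate number shared between groups. The erythroid covariate and the gene list medians were not run, as both need symbols. Counts of about 10 per library limit what can be seen under 1 CPM.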
